A study of Homo sapiens with 6 samples.

Results

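The LRRC8 family comprises 5 genes, LRRC8A, LRRC8B, LRRC8C, LRRC8D and LRRC8E, which encode the subunits of the volume-regulated anion channel. LRRC8A was picked because its value was higher with HGF than with vehicle at 2, 8 and 24 h, and the other 4 genes were added as its partner subunits, so the ratios of LRRC8A are a description and were not tested. The family was measured by 13 of 41091 probe sets annotated with 1 gene symbol, and by 5 of 19775 genes. LRRC8A had 2 probe sets, LRRC8B 3, LRRC8C 5, LRRC8D 1 and LRRC8E 2. After scaling of each array to a mean of 150, 9 of the 13 exceeded a floor of 30 in 1 or more arrays and 8 exceeded it in all 6, while the other 4, of LRRC8B and LRRC8C, stayed under it in every array.

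The volume-regulated anion channel opens when cells swell and lets chloride and small organic osmolytes such as taurine leave, which is followed by water and brings the cell back towards its volume. LRRC8A is the obligatory subunit, and a channel needs it together with at least one of the partners LRRC8B to LRRC8E. The partners set what passes: LRRC8C is one of the subunits of channels with strong chloride currents, LRRC8D favours uncharged and larger substrates, among them platinum drugs, and channels that hold LRRC8E conduct charged molecules, among them the immune messenger cGAMP.

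Gene expression was measured in DU145, human prostate cancer cells first grown from a metastasis in the brain. Cells in RPMI medium with 5% dextran-charcoal-treated serum received hepatocyte growth factor (HGF, which binds and activates the receptor kinase c-MET) at 25 ng/ml or vehicle, and RNA was taken after 2, 8 or 24 h and hybridised to Affymetrix U133plus2.0 arrays. Each of the 6 conditions had 1 array, so a ratio within a time point has no replicate error, and the number of arrays limits the precision. The values come from 1 cell line, and in a culture measured in bulk fewer cells of a type and less RNA per cell cannot be told apart.

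The deposited mean of an array was between 149.1 and 205.4, and after scaling between 33.1% (HGF at 8 h) and 36.7% (vehicle at 8 h) of the probe sets were above the floor. All 5 epithelial markers were above the floor, and all 3 leukocyte and all 3 endothelial markers with a usable probe set were at the floor in all 6 arrays. Of the luminal prostate markers KLK3 exceeded the floor in 1 or more arrays and TMPRSS2 was at the floor. The fibroblast marker COL1A1 was above the floor as well, while COL3A1 and PDGFRB were not. By the selection rule (2-fold in 1 probe set and 1.41-fold in the mean), KRT19 was higher (0.86) and EPCAM lower (-1.11) with HGF at 8 h and CDH1 lower (-0.57) at 24 h, given as log2 ratios, and EPCAM had -0.86 between the vehicle arrays of 24 and 8 h. Of the 6 genes used as a check of the HGF response, EGR1, DUSP6, SPRY4 and SOX9 were higher at all times, with ratios from 1.57 (SPRY4 at 8 h) to 2.53 (SOX9 at 24 h). EGR1 was also lower for vehicle 8 over 2 h (-0.78). MMP1 had 0.03 and 0.04 at 2 and 8 h and was higher at 24 h (4.75), and MET, the HGF receptor, was lower at 8 h (-1.66) and between the vehicle arrays of 24 and 8 h (-0.73) and of 24 and 2 h (-0.51).

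The RefSeq promoter windows of the genes (GRCh38.p14, 250 bases before to 50 after an annotated start) show where the subunits lie and what letters precede them. All 5 genes matched, with 7 windows, because LRRC8A and LRRC8D have 2 each. LRRC8B, LRRC8C and LRRC8D lie together on chromosome 1, where LRRC8C and LRRC8D are neighbouring coding genes, whereas LRRC8A is on chromosome 9 and LRRC8E on chromosome 19. On the gene mean LRRC8D was the partner with the lowest ratio at 8 h (-0.75), while the only detected LRRC8B probe set had -0.92. The windows printed are those of LRRC8A and LRRC8E, the members that passed the selection rule, and of LRRC8D, the lowest partner by that mean. They are chr9:128881883-128882182 for the first window of LRRC8A, chr19:7888260-7888559 for LRRC8E and chr1:89820782-89821081 for the first window of LRRC8D, all on the plus strand. Capitals mark matches, on either strand, to the letters of AP-1 (TGANTCA), EGR (GCGNGGGCG), CREB/ATF (TGACGTCA), ETS (CCGGAAG) or the SP/KLF GC box (GGGCGG).
LRRC8A: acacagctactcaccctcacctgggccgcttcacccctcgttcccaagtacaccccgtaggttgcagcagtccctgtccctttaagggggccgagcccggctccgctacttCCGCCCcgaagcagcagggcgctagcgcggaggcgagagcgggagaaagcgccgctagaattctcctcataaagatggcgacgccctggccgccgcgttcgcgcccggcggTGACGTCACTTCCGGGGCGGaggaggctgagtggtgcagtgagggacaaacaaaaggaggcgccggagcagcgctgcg
LRRC8E: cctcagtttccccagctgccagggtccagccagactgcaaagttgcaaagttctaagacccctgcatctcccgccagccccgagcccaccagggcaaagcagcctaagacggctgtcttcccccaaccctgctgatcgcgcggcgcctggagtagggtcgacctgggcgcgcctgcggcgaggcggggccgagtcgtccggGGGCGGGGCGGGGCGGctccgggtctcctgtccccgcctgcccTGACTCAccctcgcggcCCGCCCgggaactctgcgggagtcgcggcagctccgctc
LRRC8D: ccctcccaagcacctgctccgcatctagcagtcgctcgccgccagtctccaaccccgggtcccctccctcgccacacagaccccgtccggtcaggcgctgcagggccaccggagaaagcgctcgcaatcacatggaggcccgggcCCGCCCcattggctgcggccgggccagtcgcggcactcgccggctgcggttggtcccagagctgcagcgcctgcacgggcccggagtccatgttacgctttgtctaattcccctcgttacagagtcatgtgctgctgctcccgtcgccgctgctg
The first LRRC8A window held a CREB/ATF match at position -28 from the start, an ETS match at -20 and GC boxes at -139 and -14, the last of which overlaps the ETS match by 1 base. CREB/ATF letters were found in 1.85% and ETS letters in 10.3% of all 35116 windows of the same length. The second LRRC8A window held no match. The LRRC8E window held an AP-1 match at -6 and 4 GC boxes, and AP-1 letters were found in 7.71% of all windows. A GC box stood in 6 of the 7 windows of the family and in 45.0% of all windows. AP-1 letters also stood in the LRRC8B window at -240, and EGR letters, found in 9.43% of all windows, in the second LRRC8D window at -131, where they overlap GC boxes. No window of the family held the SRF CArG box, which 1.29% of all windows held. GC content was 66.7% for the printed LRRC8A window, 71.7% for LRRC8E and 69.0% for LRRC8D, against a median of 58.7% over all windows. These matches describe the letters only and do not show that a factor binds.

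LRRC8A, the subunit without which no channel forms, had higher values with HGF at every time. Probe set 224624_at had a scaled signal of 507.2 with vehicle and 624.4 with HGF at 2 h, 436.1 and 805.8 at 8 h, and 512.5 and 684.4 at 24 h. Probe set 233487_s_at gave 65.8 and 136.0 at 2 h, 86.0 and 173.6 at 8 h, and 68.8 and 150.5 at 24 h. On both probe sets every HGF array was above every vehicle array, and the HGF array of 8 h was the highest of all. On the other 7 detected probe sets of the family the groups overlapped. The same complete separation in this direction was found for 4.58% of the 19116 named probe sets that exceeded the floor in any array, and since LRRC8A was chosen on these values nothing is read from it.

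**Figure D1:**
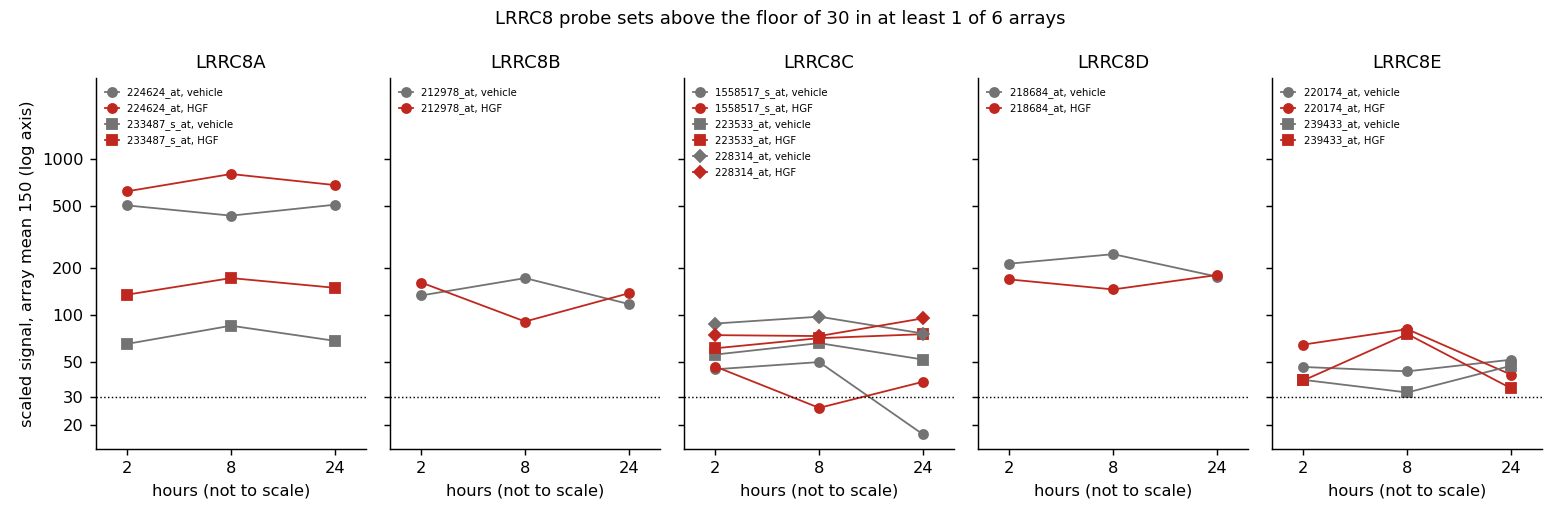
Scaled signal (array mean 150, log axis) of the 9 LRRC8 probe sets that exceeded the floor of 30 (dotted) in any array, by hours of treatment, with vehicle in grey and HGF in red, and 1 point per array. Both LRRC8A probe sets had all 3 HGF arrays above all 3 vehicle arrays, and both LRRC8E probe sets were highest in the HGF array of 8 h.

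Averaged over its probe sets, LRRC8A had a log2 ratio of HGF over vehicle of 0.67 at 2 h, 0.95 at 8 h and 0.77 at 24 h, which is 1.60-fold, 1.93-fold and 1.71-fold. Between vehicle arrays the mean gave log2 ratios of 0.08 for 8 over 2 h, 0.04 for 24 over 2 h and -0.04 for 24 over 8 h, but its probe sets moved in opposite directions from 2 to 8 h and from 8 to 24 h. For 8 over 2 h they gave -0.22 on 224624_at and 0.39 on 233487_s_at, and for 24 over 8 h 0.23 and -0.32. The vehicle range was thus 0.23 and 0.39 per probe set, and on 224624_at the HGF ratio at 2 h (0.30) was close to it. Genes of like level had a root mean square log2 ratio of 0.35 between vehicle arrays, a spread that includes time in culture. Among the HGF arrays the range of the mean was 0.36, against a median of 0.39 over 10791 genes above the floor. In order of level the HGF arrays ran from 8 through 24 to 2 h, and neighbours in this order differed by 0.22 and 0.14, less than the spread of genes of like level.

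The selection rule takes a gene as changed when at least 1 probe set differs by at least 2-fold and the gene mean by at least 1.41-fold (a log2 ratio of 0.5) in the same direction. LRRC8A passed as higher at all 3 times, 1 of 19 genes (0.0961% of all) that did. As higher, the rule took 0.42% of all genes at 2 h, 2.69% at 8 h and 1.03% at 24 h, and as lower 0.0556%, 7.94% and 0.556%. At 8 h this split depended on the scaling: 531 genes were higher and 1571 lower, but 1086 and 998 after quantile normalization. LRRC8A stood just inside the rule, because only the dimmer probe set 233487_s_at reached the required 2-fold, with 2.07-fold, 2.02-fold and 2.19-fold. The brighter 224624_at differed by 1.23-fold, 1.85-fold and 1.34-fold, so on that probe set alone LRRC8A was not called at any time. Probe sets with the ending _s_at can hold probes that match more than 1 transcript. With the averaged vehicle arrays as the reference, the ratio at 2 h was 0.63 and no longer passed. Just outside the rule stood LRRC8D at 8 h, whose gene mean exceeded 1.41-fold but whose single probe set was 1.68-fold lower. LRRC8B missed the rule at 8 h as well. Its only detected probe set was 1.90-fold lower, but with the probe sets at the floor counted as 0 the gene mean was -0.31.

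**Figure D2:**
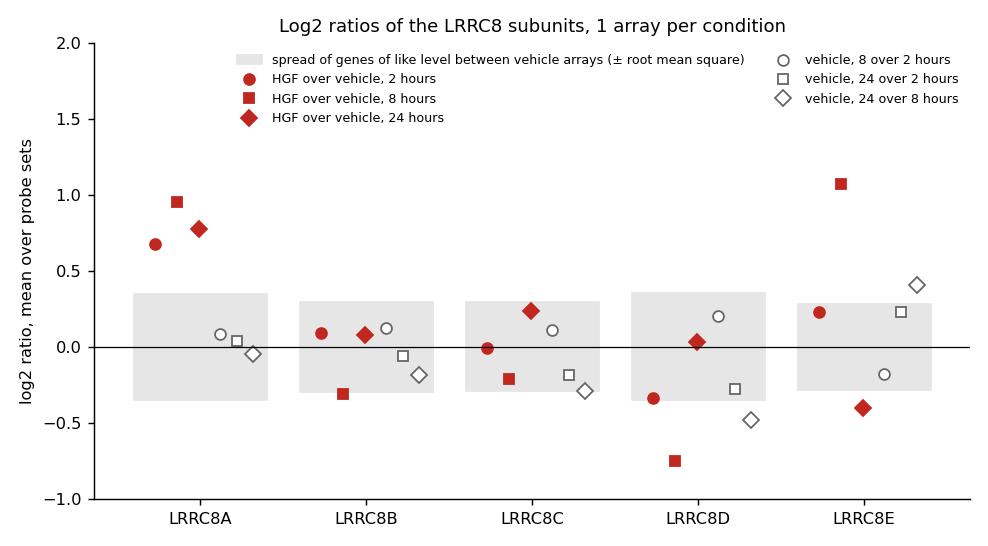
Log2 ratio, averaged over probe sets, of HGF over vehicle at 3 times (red) and between vehicle arrays of different times (open grey) for each LRRC8 gene, with the root mean square spread of genes of like level between vehicle arrays as a grey band. With HGF LRRC8A lay above its band at 2, 8 and 24 h, LRRC8E above it at 8 h and below it at 24 h, and LRRC8B and LRRC8D below theirs at 8 h. Of the vehicle ratios, those of 24 over 8 h lay outside the band for LRRC8D (-0.48) and LRRC8E (0.41).

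LRRC8E, the partner in channels that conduct charged molecules, passed the rule as higher with HGF at 8 h, and did not pass at 2 or 24 h. Probe set 220174_at had a scaled signal of 46.8 with vehicle and 65.1 with HGF at 2 h, 43.9 and 81.7 at 8 h, and 52.1 and 41.7 at 24 h. Probe set 239433_at gave 38.7 and 38.4 at 2 h, 32.1 and 76.1 at 8 h, and 47.7 and 34.1 at 24 h. Both were highest in the HGF array of 8 h and lower with HGF than with vehicle at 24 h, and the HGF and vehicle arrays overlapped. The log2 ratio of the gene was 0.23 at 2 h, 1.07 (2.10-fold) at 8 h and -0.40 at 24 h, with a spread of 0.28 among genes of like level between vehicle arrays. LRRC8E passed the rule as higher at 8 h, where 2.69% of all genes did.

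Between the HGF arrays of 24 and 8 h LRRC8E passed as lower, with a log2 ratio of -1.06, where 1.19% of all genes passed as lower and 2.31% as higher. This comparison shares the HGF array of 8 h with that against vehicle. The range of LRRC8E over the HGF arrays, 1.06 on the log2 scale, was wider than that of 94.9% of genes above the floor, whereas its vehicle range was 0.41. Its signals lay near the floor, and with a floor of 60 the ratio at 8 h was 0.39 and no longer passed. It was also not called with the brightest probe set (0.90) or against the mean of all vehicle arrays (0.87).

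LRRC8D, the partner that favours uncharged and larger substrates, had lower values with HGF at 2 and 8 h, without passing the rule. Its probe set 218684_at had a scaled signal of 214.7 with vehicle and 170.3 with HGF at 2 h, 247.1 and 146.8 at 8 h, and 177.4 and 181.7 at 24 h. The log2 ratio was -0.33, -0.75 and 0.03. At 8 h 12.1% of genes above the floor were at least as low, and at 2 h 6.63%. The vehicle arrays themselves differed by a log2 ratio of -0.48 for 24 over 8 h, and the vehicle array of 8 h was the highest of the 6.

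LRRC8C, a partner in channels with strong chloride currents, showed no common direction over its detected probe sets at 2 and 8 h, and had higher values with HGF on all 3 at 24 h. Probe set 228314_at had a scaled signal of 88.8 with vehicle and 74.8 with HGF at 2 h, 98.3 and 73.8 at 8 h, and 76.7 and 95.9 at 24 h. Probe set 223533_at gave 56.2 and 61.7, then 66.5 and 71.6, then 52.2 and 75.9 at the same times. At 24 h these 2 had log2 ratios of 0.32 and 0.54, and at 2 and 8 h one was lower and the other higher. The remaining detected probe set, 1558517_s_at, had 45.2 and 47.1 at 2 h, 50.3 and 25.6 at 8 h, and 17.3 and 37.6 at 24 h. Because 1 side was under the floor, it was at least 1.68-fold lower with HGF at 8 h and at least 1.25-fold higher at 24 h. The mean over all 5 probe sets, of which 1562712_at and 1570007_at were at the floor and count as 0, was -0.01, -0.21 and 0.24. Without a floor LRRC8C would pass as lower at 2 h (-0.54) and as higher at 24 h (1.08), on values under 30.

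LRRC8B, a partner whose own contribution to the current is small, was detected by 1 of 3 probe sets. Probe set 212978_at had a scaled signal of 134.3 with vehicle and 162.6 with HGF at 2 h, 173.6 and 91.5 at 8 h, and 118.3 and 138.9 at 24 h. It was lower with HGF at 8 h and slightly higher at the other times, and the HGF array of 8 h was the lowest of the 6. Its own log2 ratio was 0.28, -0.92 and 0.23, and that of the gene, with the 2 probe sets at the floor counted as 0, was 0.09, -0.31 and 0.08.

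No member passed the rule between vehicle arrays, where it took as higher 0.283% of all genes for 8 over 2 h, 0.142% for 24 over 2 h and 0.248% for 24 over 8 h, and as lower 0.197%, 1.16% and 2.97%. For the partners an HGF effect common to the times was tested with limma on all 6 arrays and time as a block, so that pairs of different times stand in for replicates. Whether these arrays came from separate cultures is not stated, so the p-values measure no known spread between cultures. Their error rests on how far the HGF ratio differed between the times, so a response at 1 time counts as error. The log2 effect was -0.05 (SE 0.15) for LRRC8B, 0.01 (SE 0.15) for LRRC8C, -0.35 (SE 0.19) for LRRC8D and 0.30 (SE 0.30) for LRRC8E. The adjusted p from limma was 0.967, 0.997, 0.912 and 0.912 in the same order. Of 10002 genes tested 0% passed an adjusted p of 0.05 and 403 had an unadjusted p under 0.05. This fit thus called no gene, the partners included, and for LRRC8A, chosen on these values, nothing is read from it.

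Within an array LRRC8A can be followed against each partner, which shows how the balance of the subunit transcripts differed between arrays, not how many transcripts of each there were. Against LRRC8D, the difference of LRRC8A on the log2 scale was higher with HGF by 1.01 at 2 h, 1.70 at 8 h and 0.74 at 24 h, or 2.01-fold, 3.25-fold and 1.67-fold. Against LRRC8B it was higher by 0.58, 1.26 and 0.70, and against LRRC8C by 0.68, 1.16 and 0.53. Against these 3 partners all HGF arrays were above all vehicle arrays on the gene means, in which undetected probe sets of LRRC8B and LRRC8C count as 0. LRRC8A alone separated the arrays in this way. The share of all genes against which it does so was not counted, so nothing is read from this separation. Against LRRC8E the difference was 0.44 at 2 h, -0.12 at 8 h and 1.17 at 24 h, so at 8 h both subunits were higher together. Between vehicle arrays the same differences lay between -0.45 and 0.43, the extremes being those of LRRC8E and LRRC8D for 24 over 8 h. With the brightest probe set of each gene, a comparison added after seeing the data, the differences at 2, 8 and 24 h were 0.02, 1.81 and 0.19 against LRRC8B and 0.55, 1.30 and 0.09 against LRRC8C. They were 0.63, 1.64 and 0.38 against LRRC8D, and -0.18, -0.01 and 0.74 against LRRC8E. On these probe sets the arrays overlapped against LRRC8B and LRRC8E, and the vehicle arrays of 24 and 8 h themselves differed by 0.79 against LRRC8B, 0.59 against LRRC8C and 0.71 against LRRC8D. The shift at 2 and 24 h thus depended on the probe sets taken. That at 8 h against LRRC8B, LRRC8C and LRRC8D was over 1 with either choice. It includes the ratio of LRRC8A itself, 0.95 on the mean and 0.89 on 224624_at, on which LRRC8A was chosen. On the brightest probe sets of these partners the vehicle array of 8 h was also the highest of the 6. Sign and size of the differences are thus partly fixed by the choice of LRRC8A, and nothing is read from them.

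**Figure D3:**
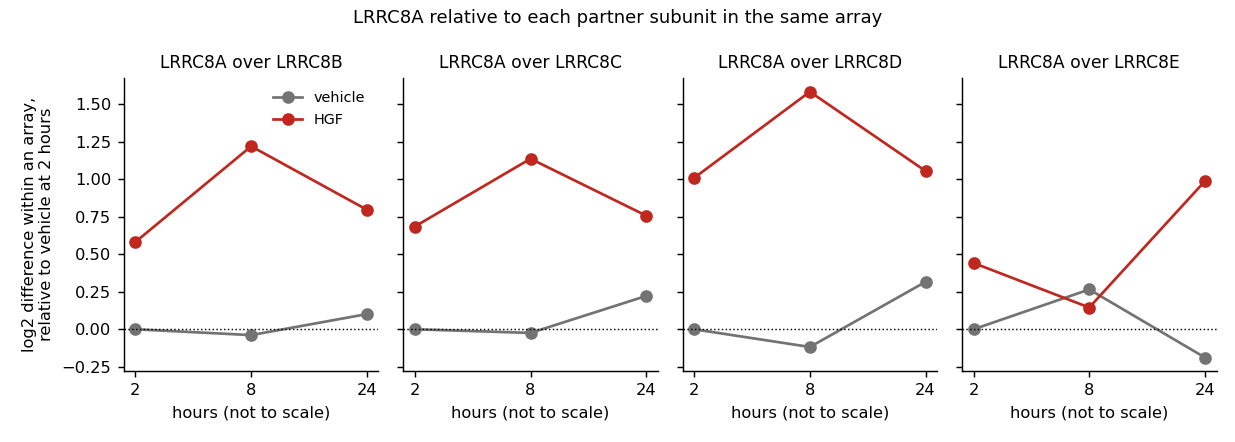
Log2 level (mean over probe sets) of LRRC8A minus that of each partner within an array, relative to the vehicle array of 2 h, by hours of treatment, with vehicle in grey and HGF in red (1 array per point). Against LRRC8B, LRRC8C and LRRC8D the HGF arrays lay above the vehicle arrays at each time, and against LRRC8E the lines crossed at 8 h.

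Over the 6 arrays the Pearson correlation was 0.73 for LRRC8B with LRRC8C, 0.72 for LRRC8B with LRRC8D and 0.66 for LRRC8C with LRRC8D. LRRC8A had a correlation of -0.76 with LRRC8D, -0.40 with LRRC8B, -0.03 with LRRC8C and 0.54 with LRRC8E. After quantile normalization these were -0.83, -0.39, 0.37 and 0.69 in the same order. LRRC8E correlated at -0.81 with both LRRC8B and LRRC8D. These are descriptions over 6 points that share their arrays and their scaling, and the means of LRRC8B and LRRC8C include probe sets at the floor. The share of all gene pairs with such correlations was not counted, so nothing is read from them.

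Among 8896 other genes detected in all 6 arrays, those with the highest Pearson correlation with LRRC8A were TBC1D20 (0.994), SOX9 (0.990), CLSTN1 (0.990), ATG16L1 (0.989) and G0S2 (0.989). The size of their ratios differed widely. SOX9, a transcription factor of progenitor cells, had log2 ratios of 1.88, 2.46 and 2.53 at 2, 8 and 24 h, and TBC1D20, a Rab GTPase-activating protein, 0.13, 0.17 and 0.17. By the root mean square difference of the 3 ratios, the closest genes were GRAMD1B (0.046), FHL2 (0.060), CEBPB (0.061), STX1A (0.075) and IRF2BPL (0.098). FHL2, a LIM domain cofactor, had ratios of 0.59, 0.92 and 0.83, and CEBPB, a bZIP transcription factor, 0.62, 0.86 and 0.75. After quantile normalization TBC1D20 ranked 122nd and G0S2 30th by correlation and CEBPB 25th by ratio, while GRAMD1B and FHL2 stayed the closest by ratio. By Spearman correlation TBC1D20, SOX9, ATG16L1 and G0S2 were among 114 tied genes. For vehicle 24 over 2 h GRAMD1B and STX1A had ratios of 0.64 and 0.63, against 0.04 for LRRC8A. LRRC8A was chosen as higher with HGF, so that genes higher with HGF lie near it is partly fixed by that choice.

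Other genes of cell volume regulation were described in 6 lists with 96 entries, of which 91 had a usable probe set and 62 were above the floor. Genes at the floor cannot pass the rule, and 10791 of all 19775 genes were above it, a smaller share than in the lists. The percentages of the lists and of all genes below are thus not on the same footing. At 2 h 0 of the 91 passed the rule, where 0.42% of all genes were higher and 0.0556% lower. At 8 h 4 were higher and 10 lower, which is 4.40% and 11.0% of the 91, beside 2.69% and 7.94% of all genes. Comparisons of the vehicle arrays of 24 and 8 h share the vehicle array of 8 h with these ratios. Recounted after quantile normalization, a step added after seeing the data, 9 were higher and 8 lower at 8 h. NHERF1, KCNK5, ANO10, TTYH3 and SLC19A1 then passed as higher, and SLC12A2 and CLCN3 no longer as lower. At 24 h 3 were higher and 1 lower, or 3.30% and 1.10%, against 1.03% and 0.556% of all genes. The median log2 ratio of the lists together was 0.00 at each time, against -0.02, -0.02 and 0.01 over all genes above the floor. In limma 58 of these genes were tested and 0 passed, with 3 higher and 2 lower at an unadjusted p under 0.05.

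Of the potassium channels of volume decrease, which release potassium alongside the anions, 12 of 13 had a probe set and 6 were above the floor. KCNN4, the intermediate-conductance calcium-activated potassium channel, had a scaled signal of 71.5 with vehicle and 88.7 with HGF at 2 h, 83.0 and 249.7 at 8 h, and 82.6 and 270.3 at 24 h. Every HGF array was above every vehicle array, as on 4.58% of named probe sets, and at 8 and 24 h KCNN4 passed as higher, with log2 ratios of 1.59 and 1.71. No other member passed at any time with the scaling used here. KCNK5, a pH-sensitive two-pore channel, and KCNK6 had ratios of 0.92 and 0.81 at 8 h, and KCNMA1, the large-conductance calcium-activated channel, 0.39 at 24 h. KCNK5 had -0.95 for vehicle 8 over 2 h, and its HGF signal at 8 h (58.9) did not exceed its vehicle signal at 2 h (59.9). KCNK6 was under the floor with vehicle at 8 h (27.5), so its ratio was at least 0.81. For KCNN4 the limma effect was 1.20 (SE 0.31), with an adjusted p from limma of 0.912.

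The chloride and anion channels other than LRRC8 had 26 of 27 genes with a probe set and 17 above the floor. At 8 h CLCN3, an endosomal chloride-proton exchanger, was lower by the rule with a log2 ratio of -0.66 and CLIC4, an intracellular chloride channel protein, with -0.97. None passed as higher at any time with this scaling. CLIC4 also passed as lower between the vehicle arrays of 24 and 8 h. TTYH3 and ANO10, members of the tweety and anoctamin families, had ratios of 0.95 and 0.85 at 8 h, and CLIC3 -0.88 at 24 h, none of which passed with this scaling. Between vehicle arrays TTYH3 had 0.71 for 24 over 2 h, ANO10 -0.81 for 8 over 2 h and CLIC3 0.88 for 24 over 8 h. CLIC3 was under the floor with HGF at 24 h (13.4) and with vehicle at 8 h (27.8), so both of its ratios are bounds.

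Of the cation-chloride cotransporters and their WNK kinases, which load or unload chloride with sodium and potassium, 13 of 14 had a probe set and 10 were above the floor. At 8 h the sodium-potassium-chloride cotransporter SLC12A2 was lower by the rule (-0.89), as was CAB39 (-1.49), a scaffold of the kinases that phosphorylate it. CAB39 was also lower between the vehicle arrays of 24 and 8 h (-0.94). STK39, one of those kinases, and the potassium-chloride cotransporter SLC12A7 had ratios of 0.91 and 0.62 at 24 h, and the kinase OXSR1 -0.37 at 8 h.

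The sodium-proton and anion exchangers of volume increase had 9 of 10 genes with a probe set and 5 above the floor. CHP1, a cofactor of sodium-proton exchangers, was higher by the rule at 8 h (0.53) and the sodium bicarbonate cotransporter SLC4A7 at 24 h (0.90). Both also passed as lower in a vehicle comparison, CHP1 for 24 over 2 h (-0.56) and SLC4A7 for 24 over 8 h (-0.55). The scaffold NHERF1 and the anion exchanger SLC4A2 had ratios of 0.94 and 0.53 at 8 h, and the sodium bicarbonate cotransporter SLC4A4 -0.29.

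The osmolyte and tonicity list had 17 of 18 genes with a probe set and 11 above the floor. At 8 h 5 genes, 29.4% of the 17, were lower by the rule, and the same 5 after quantile normalization. Of all genes, a smaller share of which was above the floor, 7.94% were lower. The 5 genes were NFAT5 (-0.97), the transcription factor of the tonicity response, the myo-inositol transporter SLC5A3 (-0.74), the amino acid transporters SLC38A2 (-1.15) and SLC7A11 (-2.05), and the chaperone HSPA4L (-0.95). SLC7A11 was lower in vehicle comparisons as well, with -1.39 for 24 over 8 h. AQP3, a water and glycerol channel, was higher at 8 h (0.82), and its brightest probe set had 176.2 with vehicle and 491.3 with HGF. SGK1, a kinase regulated by cell volume, had ratios of 0.80, 0.76 and 0.93 without passing, and between vehicle arrays 0.82 for 8 over 2 h. No gene of the list passed at 24 h.

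Proteins tied to LRRC8 channels or to import and sensing of cyclic dinucleotides had a probe set for all 14 genes, with 13 above the floor. MYADM, a membrane protein tied to LRRC8A, was higher at 8 h (1.01) with ratios of 0.55 and 0.43 at 2 and 24 h. TBK1, the kinase downstream of STING, was lower at 8 h (-1.46), and had -0.91 between the vehicle arrays of 24 and 8 h. At 24 h the lysosomal transporter SLC46A3 was higher (1.02) and the adaptor GAB2 lower (-1.03). GAB2 was under the floor with HGF at 24 h (27.7), so its ratio is a bound, and it had 0.57 for vehicle 24 over 2 h. STING1, which binds cGAMP, had 0.55 at 8 h, the transcription factor IRF3 0.81 and caveolin CAV1 -0.59, none of which passed.

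**Figure D4:**
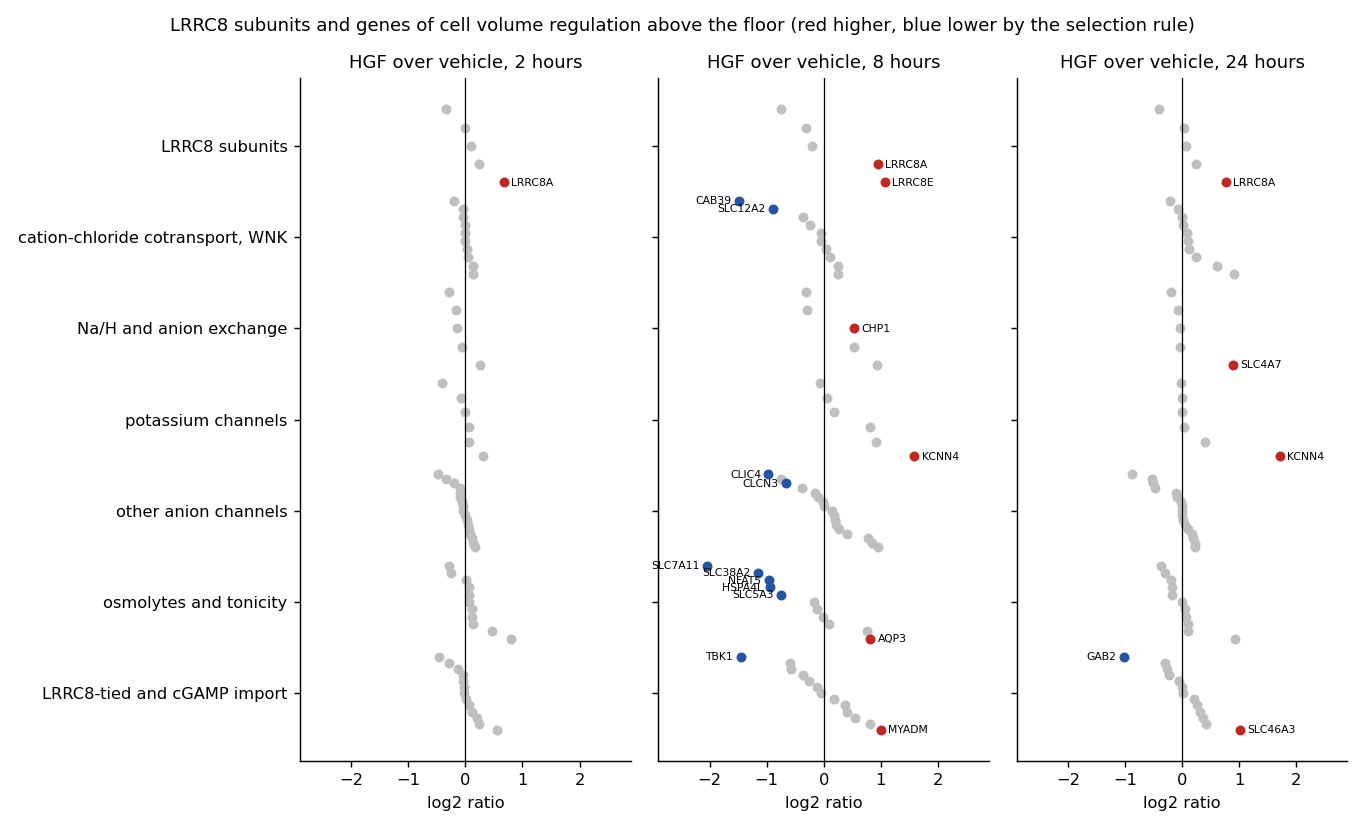
Log2 ratio of HGF over vehicle at 2, 8 and 24 h (panels) for the LRRC8 subunits and the genes of 6 volume regulation lists above the floor, 1 point per gene, in order of ratio within a list. Red and blue mark genes higher and lower by the selection rule, grey the rest. LRRC8A is the one labelled gene at 2 h, and most labelled genes at 8 h are lower.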

How the data were processed

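Total RNA of DU145 cells from 6 conditions, vehicle or HGF at 3 times, was hybridised to 1 Affymetrix U133plus2.0 array each, and the sample labels gave the groups. The authors deposited linear intensities of 54675 probe sets. Per the submitters' processing notes these come from MAS5, and neither a version nor a scaling target is given in the sources used here. In the methods, quantile normalization, a mean of 150 and a floor of 30 follow, none of which is visible in the deposited intensities. Mean and floor were therefore set here, and quantile normalization served as an alternative. Scaling sets total signal equal, so ratios are relative to the whole array, and the floor shrinks ratios of dim probe sets.

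Probe sets were named through the platform annotation (42898 listed, 41091 used with 1 symbol, 1801 with several symbols not used), and an update by gene identifier changed 0 symbols. The log2 ratio per probe set was averaged over the probe sets of a gene. limma (lmFit and eBayes, Benjamini-Hochberg, threshold 0.05) was fitted to 10002 genes that exceeded the floor in 3 or more arrays, blocked by time. The spread of genes of like level was taken in 20 bins of mean level.

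The members, the gene lists and the tests were chosen with earlier results of these data known, the study's own gene table included. The genes named are the 5 members, the genes of the volume regulation lists that pass the selection rule, up to 3 further list genes with the largest ratios, the 5 genes most like LRRC8A by each of 2 measures and the HGF check genes. Cell type markers that pass the rule with HGF were named after their values were seen. The promoter motifs were chosen after the promoters were seen. Ratios and counts were recomputed under quantile normalization, with the floor removed or set to 60, with ratios centred, with the brightest probe set or the median over probe sets of a gene, leaving out _s_at and _x_at probe sets, and with the averaged vehicle arrays as the reference. limma was rerun unblocked, with a variance trend, unfiltered and leaving out each pair of arrays. Using only probe sets that exceeded the floor in any array was an alternative chosen after seeing the data. Scripts were checked against simulated data with known changes. The tools were limma 3.58.1 in R 4.3.3, and pandas 2.3.3, numpy 2.4.6 and matplotlib 3.10.9 in Python 3.11.15.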

Additional observations from a re-analysis of the deposited data

Results flagged for a closer look

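LRRC8E had a log2 ratio of HGF over vehicle of 1.07 at 8 h and -0.40 at 24 h. It is listed because both of its probe sets were higher with HGF at 8 h and lower at 24 h. Between the vehicle arrays of 24 and 8 h LRRC8E itself had a log2 ratio of 0.41. With 1 array per condition the difference between the times was not tested, and both probe sets were near the floor of 30.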

How the results depend on the processing

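The ratio of LRRC8A differed from that reported in 5 of 9 alternatives at each time and stayed above 0, between 0.30 and 0.71 at 2 h, 0.89 and 1.10 at 8 h, and 0.42 and 0.77 at 24 h. It did not pass the rule with the brightest probe set or without _s_at and _x_at probe sets, both of which leave 224624_at alone (0.30, 0.89 and 0.42), nor at 2 h against the mean of all vehicle arrays (0.63). For LRRC8D, with 1 probe set, 3 alternatives changed the ratio, which then lay between -0.73 and -0.52 at 8 h and -0.22 and 0.03 at 24 h.

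Without a floor the rule took 2777 genes as higher and 2870 as lower at 2 h, 2971 and 5312 at 8 h, and 2887 and 3281 at 24 h. With a floor of 60 it took 3, 1016 and 48 as lower at 2, 8 and 24 h. Quantile normalization gave 1086 higher and 998 lower at 8 h. Leaving out _s_at and _x_at probe sets gave 53 higher at 2 h. The mean vehicle reference gave 7 lower at 2 h and 303 higher and 820 lower at 8 h. Only probe sets above the floor gave 18 lower at 2 h. In limma 0 genes passed, 3 without the time block and 403 at an unadjusted p under 0.05, and 0 when any pair was left out. Removing the floor moved the median of all genes at 8 h from -0.02 to -0.13 on the log2 scale. The causes were not tested.

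The limma fit pairs HGF and vehicle arrays by time through its block. Arrays number 1 per condition, and LRRC8E and part of LRRC8C lay near the floor, where the ratio follows the floor chosen.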
